A study of Pongo abelii with 6 samples.

Results

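Oxidative phosphorylation is carried out by 5 protein complexes of the inner mitochondrial membrane, and the genes described here are those of its subunits and assembly factors that lie in the nuclear genome. They were chosen by name alone: protein-coding symbols beginning with NDUF, SDHA to SDHD, UQCR, COX and a digit, or ATP5, together with CYC1 and CYCS. The RefSeq gene table of the Sumatran orangutan (Pongo abelii) held 92 such nuclear symbols, and 27 of them had at least 1 transcript in the expression table, out of 15205 genes of all kinds that could be named there. Levels are TPM, transcript abundance as a share of the library total, corrected for transcript length, so that levels of different genes can be set side by side.

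The study profiled total RNA, depleted of ribosomal RNA, from 2 orangutan induced pluripotent stem cell lines, Dokana and Djasinga, with 3 libraries each. Both lines were grown on Matrigel in StemMACS iPS-Brew with 1 µM IWR1, a tankyrase inhibitor that dampens Wnt signalling, and 0.5 µM CHIR, a GSK3 inhibitor that raises it, so no group went without these molecules. The 3 libraries of a line came from sequential passages of that line, so every SD below measures the spread between passages within a line. Every p sets the difference between the 2 lines against that spread, pooled over both lines and moderated across genes. Neither measures the spread between animals. Nothing in the sources used here gives the age of the animals or the number of clones behind a line. The series' design text counts passages as technical replicates. The labels also call the cells differentiated and name small RNA as the genotype of these total RNA libraries. In the data, 8 of 13 pluripotency markers could be named and together reached 408 to 510 TPM in Dokana and 297 to 376 TPM in Djasinga, while 4 endoderm markers summed to at most 0.142 TPM, 3 trophoblast markers to at most 0.0504 TPM, 4 mesendoderm markers to at most 4.94 TPM, 4 neuroectoderm markers to at most 10.6 TPM, 7 fibroblast markers (FAP at 0 throughout) to at most 9.56 TPM and 2 striated muscle markers (MYOD1 at 0 throughout) to at most 0.0733 TPM.

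In the respiratory chain, complex I takes electrons from NADH and complex II takes them from succinate. Complex III hands them to cytochrome c, and complex IV passes them to oxygen. Complexes I, III and IV pump protons, and ATP synthase uses the returning protons to make ATP. Pluripotent stem cells are known for making much of their ATP by glycolysis while keeping an assembled respiratory chain, and the chain is known to be used more heavily once such cells differentiate.

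Coverage of the 5 complexes by named transcripts was uneven. Complex I had 3 of 7 core subunits, 10 of 30 accessory subunits and 4 of 8 assembly factors. Complex II had 2 of 4 subunits and none of its 4 assembly factors (0 named). Complex III was represented by UQCRQ, while UQCRB had no named transcript. Complex IV was represented by the tissue-restricted subunits COX6A2 and NDUFA4L2 and the assembly factors COX15 and COX16. A further 8 of its subunits and 2 of its assembly factors had no named transcript. ATP synthase was represented by ATP5MC2 and ATP5MF. The 92 symbols are not the whole pathway: UQCRC1, UQCRC2, UQCRFS1, CYC1, COX5A, COX6A1 and COX7A2 were not among them, and nothing is said of their levels either. The catalytic head of ATP synthase (ATP5F1A to ATP5F1E), cytochrome c (CYCS), the supercomplex factor COX7A2L, the ATP synthase inhibitor ATP5IF1, COX4I1, SDHA, SDHB and NDUFS1 were among the 65 nuclear symbols with no named transcript, and nothing is said of their levels. Assembled StringTie transcripts, which carry no gene name, held 71.7% to 81.2% of each library's TPM and may include RNA of these genes and further RNA of the 27. The small subunit genes of this pathway also have processed copies elsewhere in primate genomes, and the sources used here do not say how the quantification shared reads among copies. In bulk RNA, fewer cells of a kind and less RNA per cell cannot be told apart.

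Most of the 27 genes were abundant. With a filter of at least 1 TPM in at least 3 libraries, 21 genes entered the test, and their median level over the 6 libraries was 35.6 TPM, against 4.80 TPM for the 5089 protein-coding genes that passed the same filter. Of the 21, 19 lay above that median and 13 lay at or above percentile 90 of those protein-coding genes. Added up, the 27 genes reached 1551, 1304 and 1680 TPM in Dokana replicates 1, 2 and 3 and 1162, 1162 and 1127 TPM in those of Djasinga. All 3 Dokana sums were above all 3 Djasinga sums. As a share of the TPM of named protein-coding genes the sum was nearly level, at 1.68% ± 0.0427 in Dokana and 1.67% ± 0.0943 in Djasinga (SD, n = 3). ATP5MC2 alone made up 35.9% ± 1.42 of the sum in Dokana and 35.6% ± 3.74 in Djasinga.

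**Figure D1:**
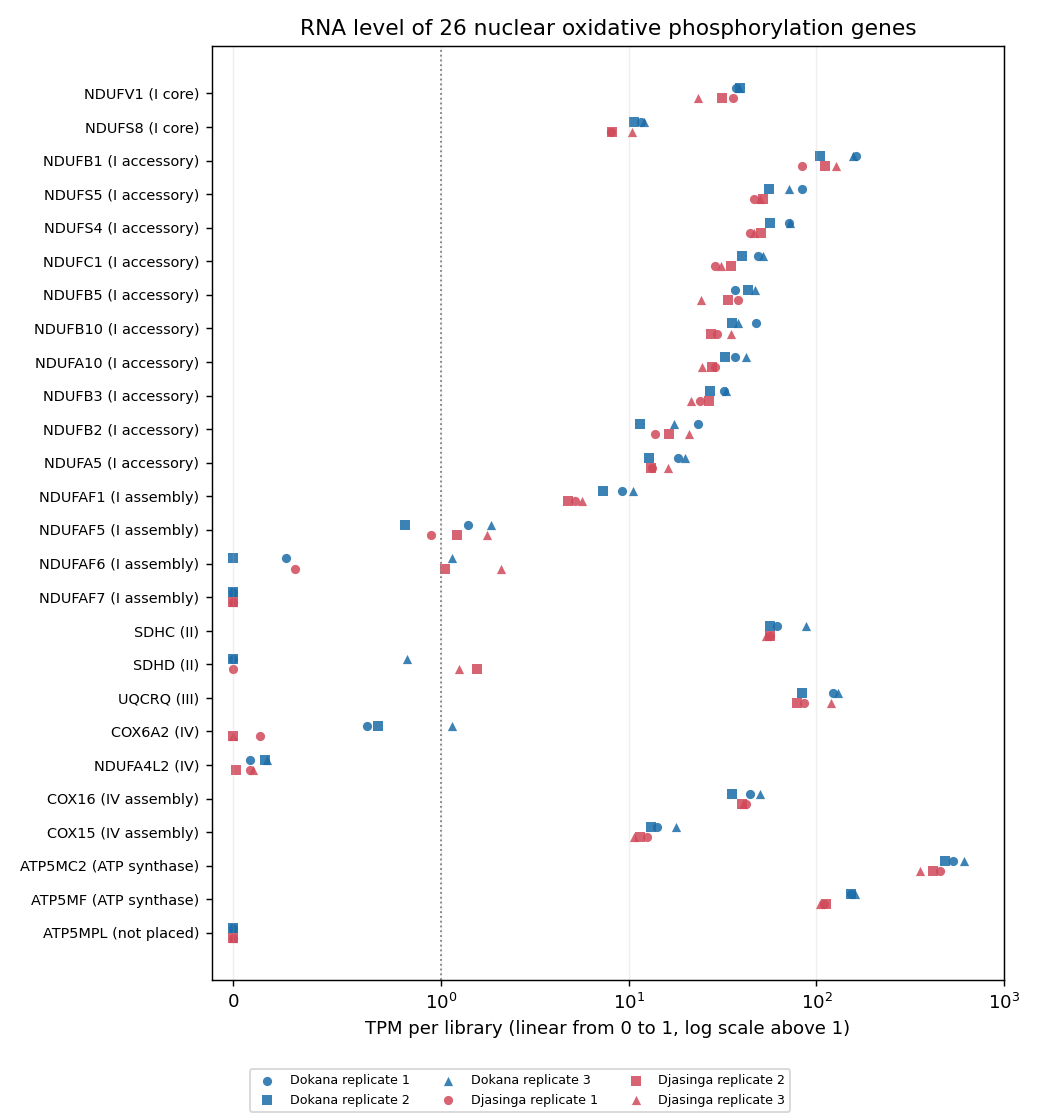
TPM of 26 of the 27 genes in each library, on an axis that is linear from 0 to 1 TPM and logarithmic above, with circles, squares and triangles for replicates 1, 2 and 3 and the complex of each gene in brackets. ATP5MC2 stood highest at 356 to 614 TPM, most complex I subunits lay between 10 and 163 TPM, and NDUFAF7 and ATP5MPL were at 0 throughout.

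The core subunits of complex I hold its redox centres. NDUFV1, which binds NADH and the flavin cofactor, was at 37.3, 39.2 and 38.8 TPM in Dokana replicates 1, 2 and 3 and 36.1, 31.2 and 23.4 TPM in those of Djasinga. Every Djasinga library lay below every Dokana library, and Djasinga replicate 3 was the lowest. NDUFS8, an iron-sulfur protein, was at 11.7, 10.6 and 12.1 TPM in Dokana and 8.04, 8.18 and 10.5 TPM in Djasinga, again without overlap. In TPM as deposited, 24.5% of all genes tested separated in this direction. After the median-ratio scaling described with the comparison, NDUFAF1 alone of the 21 genes tested still did.

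The 10 accessory subunits of complex I ranged in mean level over the 6 libraries from 15.6 to 125 TPM. NDUFB1, a small subunit of the membrane arm, was highest, at 163, 105 and 157 TPM in Dokana and 83.7, 112 and 127 TPM in Djasinga. NDUFA5, a subunit of the arm that faces the matrix, was lowest, at 18.2, 12.8 and 19.9 TPM in Dokana and 13.3, 13.1 and 16.2 TPM in Djasinga. Both genes overlapped between the lines, Dokana replicate 2 falling inside the Djasinga range of NDUFB1 and below that of NDUFA5.

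NDUFS5 and NDUFS4, accessory subunits of which NDUFS4 is needed for a stable NADH-oxidizing module, followed NDUFB1. NDUFS5 was at 83.7, 56.1 and 71.6 TPM in Dokana and 46.5, 52.2 and 49.7 TPM in Djasinga, and NDUFS4 at 71.6, 56.4 and 72.7 TPM and 44.2, 50.5 and 46.5 TPM. For both, the lowest Dokana library, replicate 2, lay above the highest Djasinga library. NDUFC1, a membrane-arm subunit, separated likewise, at 48.6, 39.9 and 52.0 TPM in Dokana and 28.6, 34.8 and 30.9 TPM in Djasinga.

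NDUFB10 (40.6 ± 6.39 TPM in Dokana and 30.7 ± 3.86 in Djasinga), NDUFA10 (37.1 ± 4.82 and 27.1 ± 2.29) and NDUFB3 (30.8 ± 3.11 and 24.1 ± 2.65) also had every Djasinga library below every Dokana library (SD, n = 3). NDUFB5 did not: it was at 42.4 ± 5.01 and 32.0 ± 7.11 TPM, and Djasinga replicate 1 lay above Dokana replicate 1. NDUFB2 was level on average but not from library to library, at 23.4, 11.5 and 17.5 TPM in Dokana and 13.7, 16.4 and 20.8 TPM in Djasinga. Its highest and its lowest library both belonged to Dokana.

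The assembly factors of complex I had lower mean levels than the complex I subunits given above. NDUFAF1, which acts with ECSIT in building the membrane arm, was the highest, at 9.19, 7.28 and 10.6 TPM in Dokana and 5.17, 4.71 and 5.62 TPM in Djasinga, with no overlap. ECSIT, its partner, is listed at 0 in all 6 libraries. NDUFAF5, which modifies the core subunit NDUFS7, was at 0.826 to 1.83 TPM in Dokana and 0.950 to 1.75 TPM in Djasinga. NDUFAF6, an early-acting factor, was at 0.258, 0 and 1.13 TPM in Dokana and 0.300, 1.05 and 2.09 TPM in Djasinga, and passed the filter through 1 Dokana library and 2 Djasinga libraries. NDUFAF7, a methyltransferase, is listed at 0 in every library, as is ATP5MPL, a symbol given to a small ATP synthase proteolipid. Since genes that respiring cells use can be listed at 0 here, a 0 says only that no RNA was assigned to the named transcript.

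Complexes II and III were seen through few genes. SDHC, a membrane anchor of complex II, was at 61.6, 56.5 and 88.5 TPM in Dokana and 56.5, 56.3 and 53.8 TPM in Djasinga. Dokana replicate 3 stood alone at the top, and Dokana replicate 2 and Djasinga replicate 1 were separated by a fraction of 1 TPM. SDHD, the other anchor, was listed at 0 in Dokana replicates 1 and 2 and Djasinga replicate 1 and was at 0.838, 1.55 and 1.25 TPM in Dokana replicate 3 and Djasinga replicates 2 and 3. UQCRQ, a small subunit of complex III, was at 123, 84.1 and 131 TPM in Dokana and 85.5, 78.8 and 120 TPM in Djasinga, and the lines overlapped.

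The 2 named complex IV subunits are isoforms of other tissues or conditions, and both were under 2 TPM in every library. COX6A2, the heart and skeletal muscle form of subunit 6A, was at 0.646, 0.699 and 1.14 TPM in Dokana and 0.130, 0 and 0 TPM in Djasinga. The lines did not overlap, but COX6A2 reached 1 TPM in 1 library only and was not tested. Fitted without the filter, its log2 difference was -0.80 and did not pass (limma adjusted p 0.179). NDUFA4L2, a hypoxia-induced relative of the complex IV subunit NDUFA4, was at 0.0160 to 0.165 TPM. NDUFA4 had no named transcript, and COX6A1, the widely expressed form of subunit 6A, was not analysed here, so no isoform ratio was formed.

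The assembly factors of complex IV were intermediate. COX16, which helps deliver copper to a mitochondrially encoded subunit, was at 44.4, 35.4 and 50.3 TPM in Dokana and 42.2, 39.9 and 40.5 TPM in Djasinga, and all Djasinga libraries lay inside the Dokana range. COX15, which makes heme A for complex IV, was at 14.2, 13.1 and 17.8 TPM in Dokana and 12.5, 11.5 and 10.6 TPM in Djasinga, without overlap.

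ATP synthase gave the highest values of all. ATP5MC2, which with ATP5MC1 and ATP5MC3 encodes the c subunit of the rotating ring, was at 532, 482 and 614 TPM in Dokana and 453, 420 and 356 TPM in Djasinga. All Djasinga libraries were below all Dokana libraries. ATP5MF, the f subunit of the membrane part, was at 153, 154 and 160 TPM in Dokana and 110, 112 and 104 TPM in Djasinga, again without overlap. Its means of 156 and 109 TPM lay further apart than its SD of 4.14 TPM in Dokana and 4.09 TPM in Djasinga, for a log2 difference of -0.52. After the median-ratio scaling described with the comparison, its values were 137 ± 17.4 and 121 ± 6.25 (SD, n = 3), the libraries overlapped and the log2 difference was -0.18.

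Between the lines, 0 of the 21 genes tested passed the threshold (limma on log2(TPM + 1), adjusted p under 0.05 over 6255 genes), where 0.352% of all genes tested passed. The smallest adjusted p was 0.283, for NDUFAF1 and ATP5MF (limma). With an unadjusted p under 0.05 stood 6 genes lower and 0 higher in Djasinga (limma), where the share of all genes was 13.9% lower and 0.895% higher. The 6 were NDUFAF1, ATP5MF, NDUFC1, NDUFS4, NDUFS5 and NDUFA10. Of the 21 genes, 20 had a difference below 0, as did 86.0% of all genes tested, and 13 had all Djasinga libraries below all Dokana libraries, as did 24.5% of all genes, while 0 were higher without overlap (1.18% of all genes). With the replicate number as a block, 0 of 21 passed (0.0799% of all genes), and 0 of 21 passed among protein-coding genes alone (0.943% of those). The spread within a line was smaller for these genes (median SD 0.195 on the log2 scale) than for all genes tested (0.268). After median-ratio scaling the medians were 0.197 and 0.233. The members were mostly abundant, and the comparison was not matched for level. What the spread within a line contributes to the count of 13 was not tested.

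Most genes of all kinds had a difference of the same sign. The median difference of the 21 genes was -0.36 on the log2 scale and that of all 6255 genes was -0.29, so the members stood -0.063 from the median gene. In the same libraries 1 unnamed StringTie transcript took 16.9%, 28.2% and 20.6% of all TPM in Dokana replicates 1, 2 and 3 and 26.7%, 37.7% and 42.4% in those of Djasinga, and TPM is a share of a fixed total. With that transcript left out the median difference of the members was -0.085 and that of all genes -0.068. Whether that transcript's share accounts for the common sign was not tested. After median-ratio scaling, which sets each library by the median gene, the members' median was -0.030 beside -0.020 for all genes, 14 differences were below 0 (53.8% of all genes) and 7 above. The scaled sum of the 27 genes was then 1321 ± 77.6 in Dokana and 1280 ± 60.0 in Djasinga (SD, n = 3). Of the 21 genes, 1 then lay lower in Djasinga without overlap and 1 higher, where 7.8% and 5.36% of all genes did.

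Those 2 genes were both assembly factors. NDUFAF1, scaled in this way, was at 8.32, 7.31 and 7.85 in Dokana and 5.39, 5.33 and 6.55 in Djasinga (log2 difference -0.39, SE 0.12, limma unadjusted p 0.0205, adjusted p 0.526). COX16, scaled, was at 40.2, 35.6 and 37.4 in Dokana and 44.0, 45.2 and 47.3 in Djasinga (log2 difference 0.26, SE 0.098, limma unadjusted p 0.0354, adjusted p 0.617). COX16 as deposited had a difference of -0.069, so its direction rests on the scaling. After scaling, 0 of 21 passed the threshold, where 0.32% of all genes did, and these were the 2 genes under an unadjusted p of 0.05, where 4.4% of all genes were lower and 3.13% higher (limma).

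**Figure D2:**
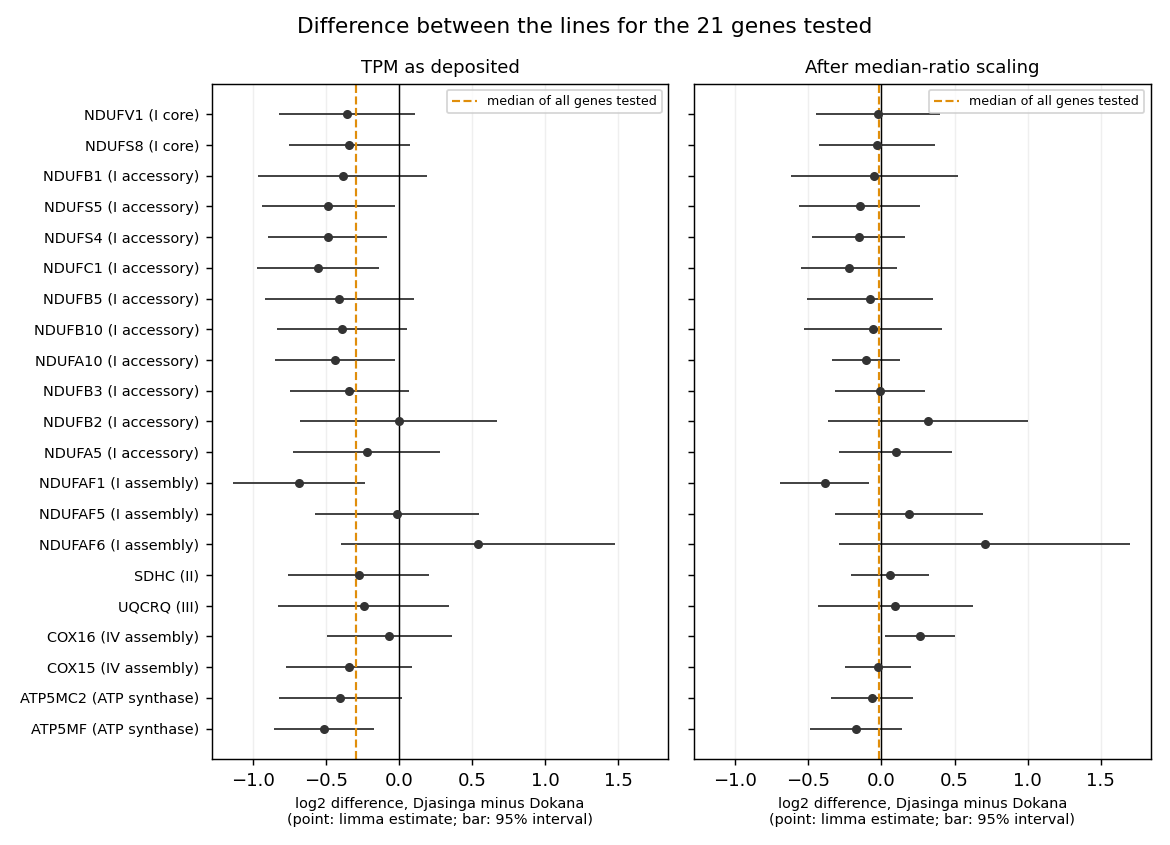
Limma log2 difference, Djasinga minus Dokana, with its 95% interval for each of the 21 genes tested, from TPM as deposited on the left and after median-ratio scaling on the right, with the median of all genes tested as a dashed line. As deposited the points gather around the dashed line at -0.29, and after scaling around -0.020, with NDUFAF1 farthest left and NDUFAF6, NDUFB2 and COX16 farthest right.

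The intervals give the uncertainty of each gene's difference, gene by gene and without adjustment for the number of genes. They are not the smallest difference the test could call, which was not determined. As deposited, the 95% interval of 19 of 21 genes lay within a 2-fold change of TPM + 1 in either direction. NDUFAF1 (-1.14 to -0.23 on the log2 scale) and NDUFAF6 (-0.40 to 1.47) were the exceptions. After scaling it was again 19 of 21, with NDUFB2 (-0.37 to 1.01) and NDUFAF6 (-0.29 to 1.70) outside. The narrowest were those of COX15 (-0.25 to 0.20), NDUFA10 (-0.34 to 0.13) and COX16 (0.025 to 0.50) after scaling. At levels near 1 TPM, as for NDUFAF5, the 2-fold bound on TPM + 1 allows a larger change of TPM itself.

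Relative to the median gene, the largest differences downward were those of NDUFAF1 (-0.39), NDUFC1 (-0.26), ATP5MF (-0.22), NDUFS4 (-0.20) and NDUFS5 (-0.19), all on the log2 scale. The largest upward were those of NDUFAF6 (0.83), NDUFB2 (0.29), NDUFAF5 (0.28), COX16 (0.23) and NDUFA5 (0.071). As deposited, limma gave adjusted p-values of 0.283 to 0.332 for the first 5 and 0.453 to 0.993 for the others. These test each gene's difference from 0 and not its difference from the median gene. By complex, the median difference as deposited was -0.40 for the 10 accessory and -0.35 for the 2 core subunits of complex I, -0.016 for its 3 assembly factors, -0.46 for the 2 ATP synthase subunits and -0.21 for the 2 complex IV assembly factors. After scaling these medians were -0.068, -0.028, 0.19, -0.12 and 0.12. SDHC of complex II was at -0.28 as deposited and 0.058 after scaling, and UQCRQ of complex III at -0.24 and 0.094.

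As deposited, Dokana replicate 3 lay above the 6-library median for 21 of 21 genes (median deviation 0.39, all genes 0.34). It held the highest value of 15 (61.9% of all genes). Djasinga replicate 2 lay below the 6-library median for 20 (median deviation -0.13, all genes -0.16). After scaling, Djasinga replicate 1 lay below the 6-library median for 17 of 21 genes (median deviation -0.12, all genes -0.0076), and Dokana replicate 1 above it for 14 (0.14, all genes 0.013). Djasinga replicate 3 held the highest value of 8 genes (27.6% of all genes) and the lowest of 5 (23.4% of all genes). The 8 were NDUFB1, NDUFB2, NDUFS8, NDUFA5, NDUFAF5, NDUFAF6, UQCRQ and COX16, and the 5 were NDUFV1, NDUFB5, NDUFA10, COX15 and ATP5MC2. Subunits of the same complex thus stood on opposite sides in this library: NDUFB2 was at 24.3 there against 11.6 to 21.2 in the other libraries, and NDUFB5, also of the membrane arm, at 28.3 against 33.4 to 43.4.

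UQCRQ, scaled, was at 140 in Djasinga replicate 3 and at 84.4 to 111 in the other 5 libraries. At the other end COX15 hardly moved, at 12.4 to 13.2 over all 6 libraries, with the smallest within-line SD of the 21 genes (0.030 on the log2 scale, median of the 21 0.197, median of all genes 0.233). NDUFA10, COX16 and ATP5MC2 followed, with 0.059, 0.071 and 0.084, and NDUFAF6 and NDUFB2 were the most variable, with 0.58 and 0.40.

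**Figure D3:**
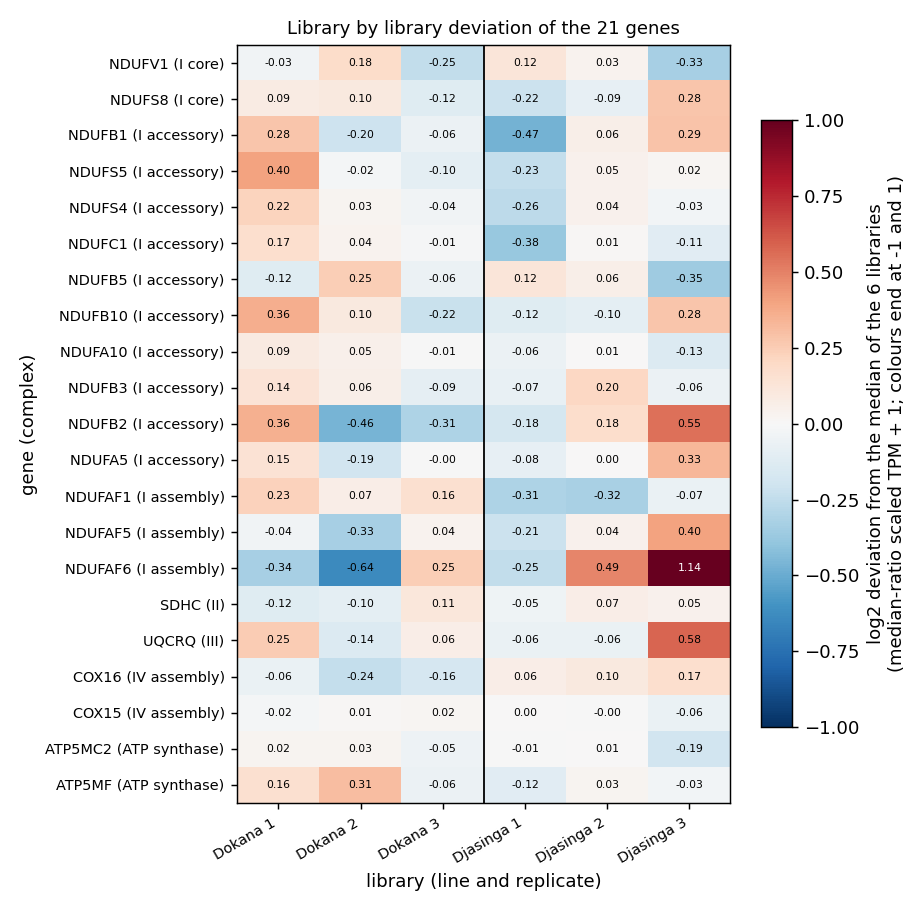
Log2 deviation of each of the 21 genes (rows, complex in brackets) from its median over the 6 libraries (columns), from median-ratio scaled TPM + 1, red above and blue below. Djasinga replicate 3 holds both the deepest reds, led by NDUFAF6, UQCRQ and NDUFB2, and the blues of NDUFB5 and NDUFV1, while the COX15 row is almost white.

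The 27 genes were measured through 41 transcripts, and 10 genes had more than 1. Of the 29 transcripts that passed the filter, 0 passed the threshold (limma, smallest adjusted p 0.264), where 1.03% of 22561 transcripts did, and 0 passed after scaling, where 0.802% did. At an unadjusted p under 0.05, 4 were lower and 0 higher (limma), where 13.1% and 1.4% of all transcripts were. In most of these genes 1 transcript dominated throughout: the main transcript of ATP5MC2 held 96.1% to 97.3% of the gene, that of NDUFS8 87.3% to 94.1%, that of NDUFB10 83.7% to 90.5% and that of COX15 81.8% to 86.8%. SDHC was steadily split, its main transcript holding 64.3% to 70.9%, and the main transcript of ATP5MF held 77.8% to 84.5%.

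The split of NDUFAF1 differed widely between libraries. Its main transcript was at 8.37, 6.45 and 6.33 TPM in Dokana and 2.73, 3.77 and 5.61 TPM in Djasinga. Its second transcript was at 0.820, 0.826 and 4.23 TPM in Dokana and 2.44, 0.949 and 0.00438 TPM in Djasinga, so that the main transcript's share ran from 52.8% in Djasinga replicate 1 to 99.9% in Djasinga replicate 3 within a line. In TPM as deposited, the main transcript did not overlap between the lines and the second did. The share of all transcripts that separated in this way was not counted. The main transcript's difference was -0.71 as deposited (limma adjusted p 0.294) and -0.43 after scaling (limma unadjusted p 0.172, adjusted p 0.781). In COX16, the 3 transcripts differed in share from library to library, the main one holding 57.4% to 75.2%. Its least abundant transcript was at 4.57, 4.76 and 8.25 TPM in Dokana and 7.20, 6.66 and 5.94 TPM in Djasinga, and was after scaling the 1 member transcript under an unadjusted p of 0.05 (log2 difference 0.47, limma adjusted p 0.408). At that level 3.86% of all transcripts were higher and 5.22% lower after scaling. NDUFAF6 took 0.904 of its 2.09 TPM in Djasinga replicate 3 from a transcript that was at 0 in the other 5 libraries.

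**Figure D4:**
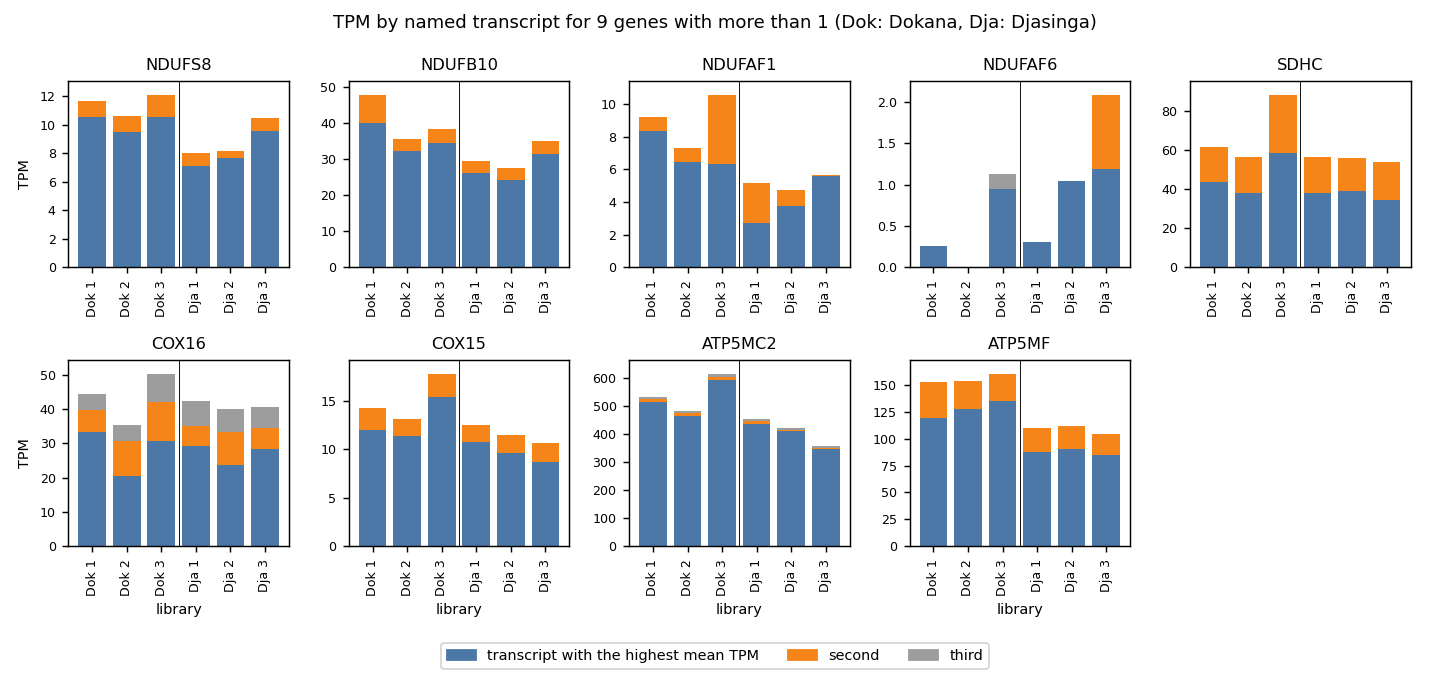
TPM per library of each named transcript for 9 of the 10 genes with more than 1, stacked, with the transcript of highest mean TPM in blue, the second in orange and the third in grey. ATP5MC2 is almost all blue, SDHC keeps the same split in every library, and the orange part of NDUFAF1 is large in Dokana replicate 3 and Djasinga replicate 1 and all but missing in Djasinga replicate 3.

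Other genes of the pathway were described from 8 lists. Of their 145 symbols, which count both spellings of the mitochondrially encoded subunits, 51 had a named transcript and 44 passed the filter. Of the 44, 0 passed the threshold (limma, smallest adjusted p 0.240), where 0.352% of all genes did. At an unadjusted p under 0.05, 11 were lower and 0 higher (limma), where 13.9% and 0.895% of all genes were. Their median difference was -0.39 as deposited and -0.063 after scaling, beside -0.36 and -0.030 for the 21 members and -0.29 and -0.020 for all genes. The subunits encoded by mitochondrial DNA had 0 named transcripts. Unnamed transcripts may hold RNA of the listed genes too. Levels and the highest gene of a list thus cover named transcripts alone.

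Assembly factors outside the naming rule (10 tested, median -0.36) were led by TMEM126A, a complex I assembly factor, at 33.0 ± 9.75 TPM in Dokana and 22.7 ± 2.70 in Djasinga. The genes of mitochondrial DNA expression and copying (9 tested, median -0.39) were led by SSBP1, which coats single-stranded mitochondrial DNA, at 105 ± 22.0 and 79.5 ± 14.3 TPM. POLG, the polymerase that copies mitochondrial DNA, was at 3.87, 2.66 and 5.10 TPM in Dokana and 1.60, 1.23 and 1.65 TPM in Djasinga (limma adjusted p 0.258, log2 difference -0.94, SE 0.23; after scaling -0.70 with adjusted p 0.328). All its Djasinga libraries were below all its Dokana libraries.

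Of the nuclear regulators (7 tested, median -0.26), SP1, a general promoter-binding factor, was highest at 22.2 ± 4.55 and 15.7 ± 1.13 TPM. GABPA, an ETS factor known to bind promoters of respiratory genes, was at 12.5 ± 2.54 and 7.63 ± 1.70 TPM. Its log2 difference was -0.64 as deposited (limma adjusted p 0.326) and -0.33 after scaling (limma adjusted p 0.823). After scaling, 3 of the 7 regulators were below 0 and the list median was 0.013. NRF1, the other such factor, and the coactivators PPARGC1A and PPARGC1B had mean levels of 0.515, 0.393 and 0.534 TPM over the 6 libraries and were not tested. The TCA cycle list (5 tested, median -0.33) was led by CS, citrate synthase, at 33.7 ± 4.67 and 25.2 ± 8.34 TPM.

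Glycolysis (6 tested, median -0.40) held the highest level of the 8 lists, GAPDH at 2373 ± 271 TPM in Dokana and 1803 ± 193 in Djasinga. PKM, a pyruvate kinase, was at 17.8, 16.5 and 21.7 TPM in Dokana and 10.5, 12.7 and 6.44 TPM in Djasinga. Among membrane carriers (3 tested, median -0.33), the phosphate carrier SLC25A3 was at 302 ± 22.7 and 243 ± 53.4 TPM, and VDAC1, a channel of the outer membrane, at 131 ± 19.7 and 80.7 ± 9.11 TPM. GPX4, which reduces lipid peroxides, led the electron entry and antioxidant list (4 tested, median -0.57) at 108 ± 10.8 and 63.4 ± 9.37 TPM (SD, n = 3). After scaling POLG, PKM, VDAC1 and GPX4 were the 4 of 44 under an unadjusted p of 0.05, all lower in Djasinga (limma adjusted p 0.328 to 0.632), where 4.4% of all genes were lower at that level.

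**Figure D5:**
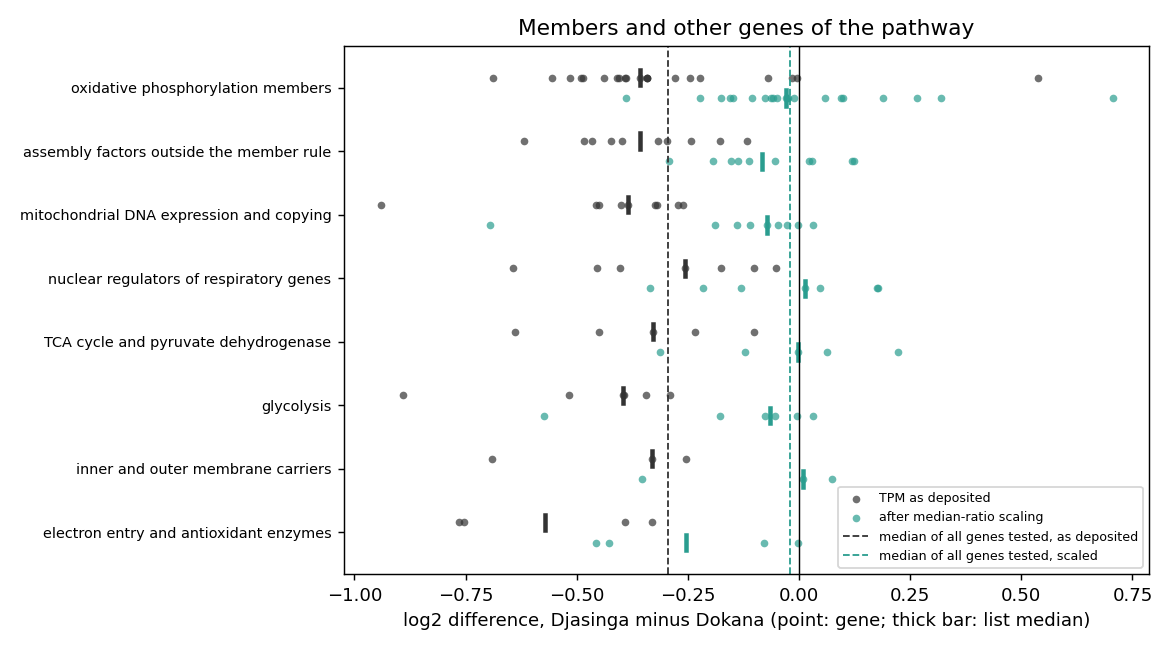
Limma log2 difference, Djasinga minus Dokana, of each gene tested among the members and the other pathway lists (points), with list medians as thick bars and the medians of all genes tested as dashed lines, from TPM as deposited in black and after median-ratio scaling in green. The black medians run from -0.57 to -0.26 and the green ones from -0.25 to 0.013.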

How the data were processed

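The values are TPM per transcript, scaled by the authors to the same total in each library, per the file headers and the column sums; the file also carries 2 other marks, 0 or 1, for HERV entries, which the authors deposited and which were not used here. FastQC 0.11.9, Trimmomatic 0.39, STAR and StringTie are named in the submitters' processing notes without roles, and the sources used here name no quantifier, genome build or annotation release. Read depth cannot be recovered from TPM, so the counting error of each value is unknown. Library columns were matched to samples by the library names in the labels.

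RefSeq accessions were paired with symbols, version dropped, by the table of assembly NHGRI_mPonAbe1-v2.0, which served for names alone. It named 22112 of 43705 RefSeq transcripts (50.6%), and 9 of the 41 member transcripts matched with their version too. TPM was summed per symbol.

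The test was limma-trend on log2(TPM + 1), Djasinga minus Dokana, without a block, over all genes reaching 1 TPM in 3 or more libraries. P-values were adjusted by Benjamini-Hochberg, and the threshold was 0.05. On this scale fold changes of low genes are understated. The fit was checked on simulated data with added differences larger than any fitted for a member. It was not checked for differences of the size seen here, nor for a shift common to all genes of a library. Members, lists and tests were chosen with earlier results of these data known. Members named with values were the highest and lowest of each complex, the 5 largest differences in each direction relative to the median gene, and all members of the isoform groups. The rule also named CYCS, COX7A2L and ATP5IF1, which had no named transcript and so no value. Others were named after their values were seen. The labels give the replicate number under a batch tag, which was taken to pair libraries across lines. Deviations of same-numbered libraries correlated by -0.0930, -0.130 and 0.152 over all genes tested. Alternatives covered the block, scaling, pseudocount, filter, gene class, accession version, variance trend, the most abundant transcript and each library left out. Python 3.11.15, pandas 2.3.3, numpy 2.4.6, matplotlib 3.10.9, R 4.3.3 and limma 3.58.1 were used. Values of 1 member gene are not reported here; it remains in the counts and sums.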

Additional observations from a re-analysis of the deposited data

How the results depend on the processing

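In every alternative run, 0 members, 0 member transcripts and 0 other pathway genes passed the threshold; the smallest adjusted p of a member was 0.136, for NDUFAF1 with protein-coding genes alone (limma). With the replicate number as a block 0 members were called (smallest limma adjusted p 0.439) and 5 genes in place of 22, and the block changed no call of a member. Genes called were 48 with protein-coding genes alone, 10 with a pseudocount of 0.1, 9 with a minimum of 5 TPM, 0 with the accession version required (1400 genes and 8 members tested, 135 genes at an unadjusted p under 0.05) and 7 to 23 with 1 library left out: 12, 9 and 7 without Dokana replicates 1, 2 and 3, and 10, 23 and 7 without those of Djasinga. These counts moved, and the cause was not tested. The share of genes called was 0.352% in the main test, 0.0799% with the block and 0.943% with protein-coding genes alone. Of transcripts, 1.03% were called in the main test. At shares this low, 0 calls are likely in sets as small as the members, their transcripts or the other pathway genes. Their unmoved counts therefore cannot show whether they are more stable than other genes.

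The members' median difference of -0.36 became -0.030 after median-ratio scaling, -0.017 after quantile normalization, -0.085 without the most abundant transcript (SDHD then also passing the filter) and -0.43 to -0.30 with 1 library left out. It was -0.026 with scaling and without Djasinga replicate 3, a combination chosen after seeing the data. The log2 ratio of summed TPM, -0.39, became -0.046 with scaling and -0.10 without the most abundant transcript. Of single genes, 6 turned above 0 with median-ratio scaling: COX16 (0.26), NDUFA5 (0.098), NDUFAF5 (0.19), NDUFB2 (0.32), SDHC (0.058) and UQCRQ (0.094). With quantile normalization these were 0.27, 0.11, 0.21, 0.34, 0.034 and 0.068, joined by COX15 (0.00023) and NDUFB3 (0.014). Without the most abundant transcript COX16, NDUFA5, NDUFAF5, NDUFB2 and UQCRQ were at 0.21, 0.044, 0.18, 0.27 and 0.036. With scaling and without Djasinga replicate 3, COX16, NDUFAF5, NDUFB2, NDUFB3, NDUFB5, NDUFV1 and SDHC were at 0.24, 0.027, 0.14, 0.030, 0.071, 0.11 and 0.046. With 1 library left out NDUFAF5 ranged from -0.19 to 0.13, NDUFB2 from -0.26 to 0.22 and COX16 from -0.20 to 0.043. Depth is unknown, so levels near 0 cannot be given a detection limit.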
